A study of Homo sapiens with 6 samples.

Results

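The genes described are 33 regulators and targets of NRF2, the transcription factor encoded by NFE2L2, picked by name with no measured value of these libraries in the rule. All 33 were found among the 30676 genes of the deposited table. Of these, 32 had a mean of at least 0.5 FPKM (RNA fragments relative to a gene's length and to the size of the library) over the 6 libraries and were tested, and GPX2 was below that level. RNA was measured in cells labelled HCT116, an established human colorectal cancer line, with a WT genotype. The GIA group had 3 libraries of cells given 10 µM GIA, a genistein isoflavonoid alkaloid, and the DMSO group had 3 libraries of cells given 0.1% DMSO. Both groups were kept at 1% oxygen for 24 hours. A DMSO content is stated for the DMSO group only, there was no normoxic group, and nothing in the labels ties the 3 libraries of a group to separate cultures. The p-values therefore reflect the variation among these libraries, which may be technical.

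Under basal conditions the adaptor KEAP1 holds NRF2 in the cytoplasm and presents it to a CUL3 ubiquitin ligase for degradation. Oxidants and electrophiles modify cysteines of KEAP1, NRF2 then accumulates, pairs with a small MAF protein in the nucleus and binds antioxidant response elements. Its targets make and recycle glutathione, supply NADPH, reduce quinones and carbonyls, and degrade haem. Much of this control acts on the NRF2 protein, which RNA counts do not measure.

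Several markers of colonic epithelium were at or near 0 in these libraries. The keratins KRT8, KRT18 and KRT19 had mean levels of 146, 255 and 27.7 FPKM, but EPCAM reached at most 0.335 FPKM and CDH1, which encodes E-cadherin, at most 0.0490 FPKM. VIL1 and CDH17 were listed at 0 FPKM in all 3 GIA libraries. CDX1, CDX2, CEACAM5 and TFF3 had no entry under these names in the deposited table. Of 12 epithelial markers, 8 were thus listed and 3 were tested. Among 10 fibroblast markers, 8 were listed and 6 tested, with LUM, a matrix proteoglycan, at a mean of 173 FPKM and COL3A1 at 0 FPKM in 5 libraries. Of the leukocyte markers only CD68, a lysosomal protein found in many cell types, passed the filter, with PTPRC at no more than 0.0162 FPKM, and of the endothelial markers only ENG passed. Library totals lay between 55725249 and 67835059 estimated counts.

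The sequence that NRF2 binds was searched close to the gene starts, and elements further away were not covered. RefSeq windows of 250 bases before a gene start (GRCh38.p14) matched 26 of the 33 genes by symbol, in 37 windows, and the unmatched genes were AKR1B10, ALDH3A1, CBR3, GSR, HMOX1, MAFK and SLC7A11. The core of the antioxidant response element, TGACNNNGC on either strand, was present in 8 of the 37 windows (21.6%), each of a different gene, against 3830 of 35116 windows of all genes (10.9%). The genes were CBR1, EPHX1, GCLM, GPX2, KEAP1, MAFF, ME1 and PGD. Of the 9 matches, 1 (in ME1) also held TGACTCA, the AP-1 motif. A match is a string of letters and was not tested as a binding site. The windows of GCLM, ME1, KEAP1 and GPX2 are shown because they cover a glutathione gene, an NADPH gene, the repressor itself and the gene that was barely detected. Each is written 5′ to 3′ on the strand of its gene, and capitals mark the core element or its reverse complement.
GCLM (chr1:93909431-93909680, minus strand): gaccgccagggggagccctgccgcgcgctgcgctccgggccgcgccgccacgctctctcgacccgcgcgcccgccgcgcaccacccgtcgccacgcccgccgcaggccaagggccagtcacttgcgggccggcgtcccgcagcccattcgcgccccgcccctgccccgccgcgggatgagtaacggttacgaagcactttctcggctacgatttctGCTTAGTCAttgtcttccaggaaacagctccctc
ME1 (chr6:83431052-83431301, minus strand): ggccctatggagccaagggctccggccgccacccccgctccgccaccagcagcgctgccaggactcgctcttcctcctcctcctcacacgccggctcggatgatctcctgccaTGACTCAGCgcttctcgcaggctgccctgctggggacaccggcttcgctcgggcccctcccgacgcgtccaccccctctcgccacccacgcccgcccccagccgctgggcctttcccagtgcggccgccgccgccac
KEAP1 (chr19:10502772-10503021, minus strand): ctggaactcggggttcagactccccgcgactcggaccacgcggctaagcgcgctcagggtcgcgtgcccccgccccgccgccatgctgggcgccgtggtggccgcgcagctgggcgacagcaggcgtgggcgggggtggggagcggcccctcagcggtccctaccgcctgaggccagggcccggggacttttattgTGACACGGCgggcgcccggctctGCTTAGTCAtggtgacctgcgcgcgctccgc
GPX2 (chr14:64942746-64942995, minus strand): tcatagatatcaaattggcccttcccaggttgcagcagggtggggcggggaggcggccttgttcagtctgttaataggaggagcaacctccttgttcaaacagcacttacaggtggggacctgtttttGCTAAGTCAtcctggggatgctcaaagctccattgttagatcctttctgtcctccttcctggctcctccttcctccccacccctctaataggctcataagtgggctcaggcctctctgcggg
The element begins 34 bases before the start of GCLM and 137 before that of ME1, while KEAP1 holds a pair of them, 54 and 31 bases before its start. These distances are from the RefSeq starts: the elements of KEAP1 and GPX2 lie inside the gene spans of the deposited table, which begin further upstream. GPX2, a gastrointestinal glutathione peroxidase with an element 122 bases before its start, had 0, 0.0504 and 0.0460 FPKM in GIA libraries 1 to 3 and 0.0812, 0.0525 and 0 FPKM in DMSO libraries 1 to 3, which came from 0 to 8 estimated counts.

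No NRF2 gene passed the test between GIA and DMSO, and for most the fitted interval was narrow. Of the 32 tested genes, 0 were higher and 0 lower at an adjusted p under 0.05 by edgeR's quasi-likelihood test, against 0 of all 13721 tested genes (0%). At an unadjusted p under 0.05 there was 1 of 32 (UGDH, lower), against 4.59% of all tested genes in either direction and 1.95% lower. DESeq2 and limma on log2 (FPKM + 0.5) also called 0 of the 32, each with 1 at an unadjusted p under 0.05. The log2 fold changes, GIA over DMSO, ran between -0.38 and 0.16 with a median of -0.03, against 0.00038 for all tested genes. They were negative for 23 genes and positive for 9, where 49.8% of all tested genes were negative. For 30 of the 32 both 95% bounds were under 1.5-fold, against 83% of all tested genes, and the exceptions AKR1C2 and AKR1B10 were within 2-fold. In bulk RNA, fewer cells of a type and less RNA per cell cannot be told apart, so these are differences in RNA per library.

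**Figure D1:**
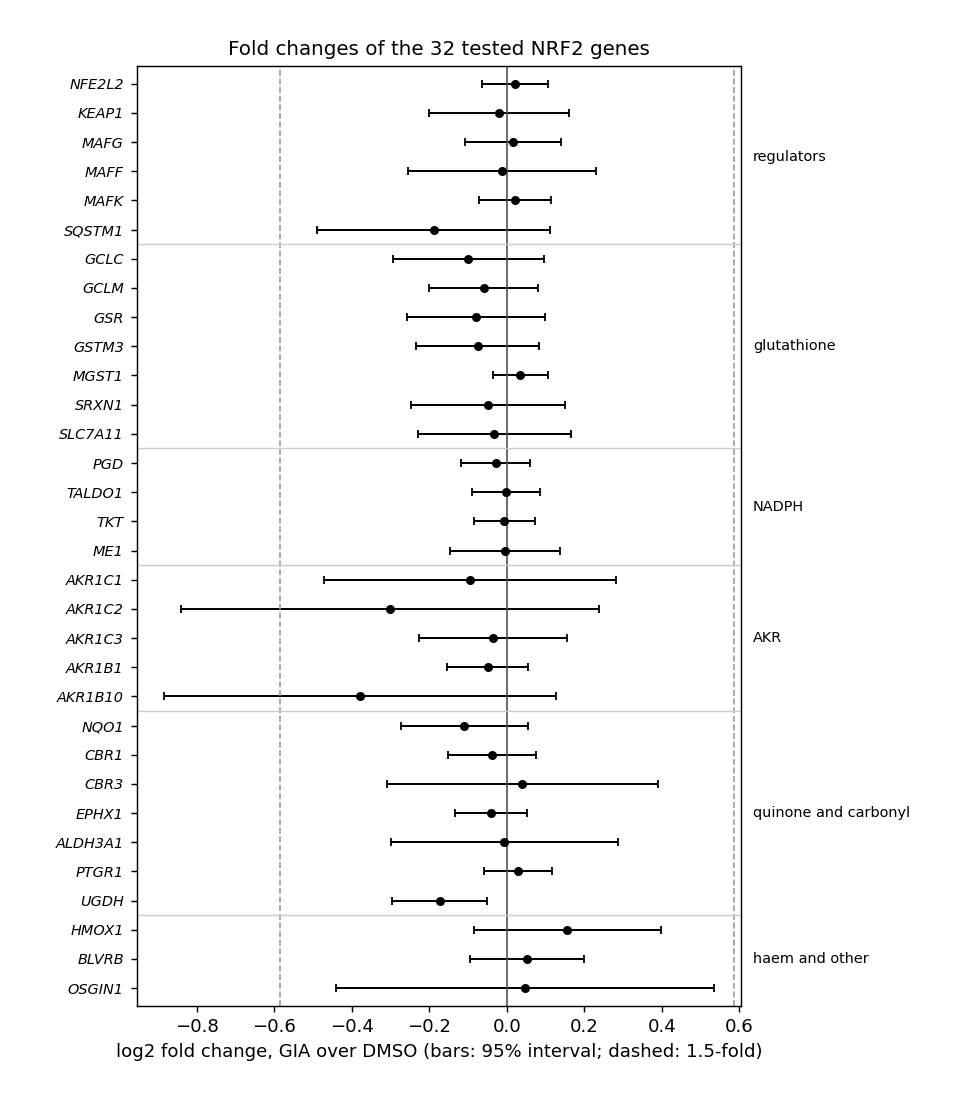
Log2 fold change of each of the 32 tested NRF2 genes, GIA over DMSO, with 95% intervals from the edgeR fit (3 libraries each); dashed lines mark 1.5-fold. Points lie between -0.38 and 0.16, and the interval of 1 gene, UGDH, leaves out 0 before any adjustment.

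Levels covered a wide range. Mean FPKM over the 6 libraries was at least 10 for 23 of the 33 genes, and 10 were among the 1372 most abundant tested genes. The highest was the aldose reductase AKR1B1 at 152 FPKM, followed by SQSTM1 at 135, TKT at 117 and NQO1 at 102 FPKM. The ranges of AKR1B1 and SQSTM1 over the 6 libraries overlapped, as did those of SQSTM1 and TKT, while TKT lay above NQO1 with no overlap. The lowest tested genes were AKR1B10, AKR1C2 and AKR1C1, with means of 0.808, 0.711 and 0.654 FPKM, and their ranges overlapped.

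**Figure D2:**
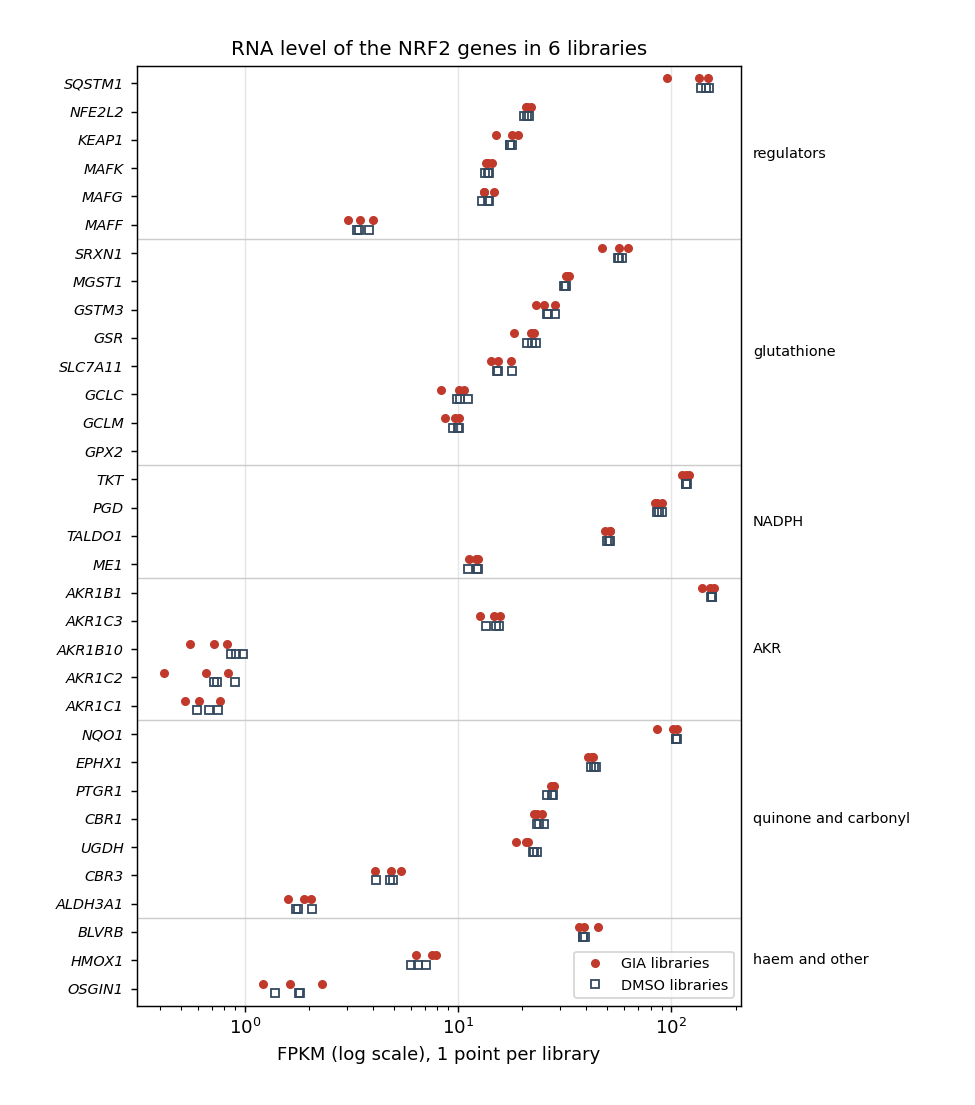
FPKM of the NRF2 genes in each library on a log axis, GIA libraries as filled circles above DMSO libraries as open squares, ordered by mean level within each functional group; no points are drawn for GPX2, which was at 0 in 2 libraries. The 2 sets of points overlap for most genes, and AKR1B1 at a mean of 152 FPKM is the highest.

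Of the 6 regulators 0 passed, and they differed in how much they varied among the GIA libraries: the SD of log2 FPKM there was 0.33 for SQSTM1, 0.20 for MAFF and 0.18 for KEAP1, against 0.04 for NFE2L2, 0.05 for MAFK and 0.09 for MAFG. NFE2L2 (chr2:177227595-177287777, minus strand) had 20.9, 22.0 and 21.1 FPKM in GIA libraries 1 to 3 and 21.5, 21.0 and 20.4 FPKM in DMSO libraries 1 to 3, which gave 0.02 on the log2 scale (SE 0.04, 95% bounds -0.06 and 0.11; edgeR adjusted p = 0.932). The groups overlapped and the whole range was small. KEAP1 (chr19:10486125-10503356, minus strand) had 19.1, 15.1 and 17.9 FPKM in the GIA libraries and 17.4, 17.9 and 17.4 FPKM in the DMSO libraries, with a log2 fold change of -0.02 (SE 0.08). GIA libraries 1 and 2 lay above and below all 3 DMSO libraries. The level of NFE2L2 over that of KEAP1 was 1.24 ± 0.195 with GIA and 1.19 ± 0.0350 with DMSO (SD, n = 3 each).

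SQSTM1 encodes p62, an autophagy receptor that binds KEAP1 and is itself a target of NRF2. It had 149, 95.7 and 134 FPKM in GIA libraries 1 to 3 and 138, 149 and 145 FPKM in DMSO libraries 1 to 3, which gave -0.19 on the log2 scale (SE 0.13, bounds -0.49 and 0.11; edgeR adjusted p = 0.875). GIA library 2 was the low one, and GIA library 1 lay within the DMSO range. SQSTM1 overlaps MGAT4B on the opposite strand (mean 32.2 FPKM), and no source used here says whether the counting used strand. Of the small MAF genes, which encode the partners of NRF2, MAFG and MAFK had means of 13.7 and 13.8 FPKM and MAFF 3.51 FPKM. Their log2 fold changes were 0.02, 0.02 and -0.01, and their GIA and DMSO values overlapped.

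Of the 7 tested glutathione genes 0 passed, and 6 had a negative log2 fold change, between -0.10 and -0.03. These signs rested on GIA library 2: without it GCLC, GCLM, GSR, SLC7A11 and SRXN1 had 0.0012, 0.0043, 0.011, 0.040 and 0.057, and GSTM3 had -0.0064. SRXN1, sulfiredoxin, which restores over-oxidised peroxiredoxins, had 62.4, 47.2 and 56.8 FPKM in the GIA libraries and 57.1, 58.6 and 56.3 FPKM in the DMSO libraries (log2 fold change -0.05, SE 0.09). GIA libraries 1 and 2 were the highest and the lowest of the 6. The exception was MGST1, a microsomal glutathione transferase, with 33.1, 32.04 and 32.2 FPKM with GIA and 31.7, 31.3 and 31.9 FPKM with DMSO. Its groups did not overlap, by a small margin, and its log2 fold change was 0.03 (SE 0.03, edgeR adjusted p = 0.881).

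The subunits of glutamate-cysteine ligase, the rate-limiting enzyme of glutathione synthesis, had near equal levels. The catalytic subunit GCLC averaged 9.70 ± 1.20 FPKM with GIA and 10.4 ± 0.609 FPKM with DMSO, and the modifier GCLM averaged 9.46 ± 0.730 and 9.86 ± 0.347 FPKM in the same groups (SD, n = 3 each). The FPKM of GCLM over that of GCLC was 0.979 ± 0.0496 with GIA and 0.950 ± 0.0480 with DMSO. Glutathione reductase, GSR, averaged 21.0 ± 2.28 FPKM with GIA and 22.2 ± 1.14 with DMSO. The cystine importer SLC7A11 averaged 15.8 ± 1.75 and 16.1 ± 1.48 FPKM in these groups, and the transferase GSTM3 25.7 ± 2.53 and 27.0 ± 1.15 FPKM. Each of these differences was smaller than the SD of the GIA libraries.

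NADPH genes were the steadiest. TKT, transketolase of the pentose phosphate pathway, had 121, 112 and 118 FPKM in the GIA libraries and 117, 117 and 119 FPKM in the DMSO libraries. PGD, phosphogluconate dehydrogenase of the same pathway, had 90.2, 83.6 and 85.4 FPKM with GIA and 86.05, 90.2 and 87.8 FPKM with DMSO. GIA library 2 was the lowest of the 6 for both, by a small margin. The log2 fold changes of PGD, TKT, ME1 (malic enzyme) and TALDO1 (transaldolase) ran between -0.03 and -0.0029, and each interval stayed within 1.11-fold. Summed over these 4 genes the level was 266 ± 9.97 FPKM with GIA and 268 ± 3.76 FPKM with DMSO.

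Among the 5 listed aldo-keto reductase genes, AKR1B1 held most of the summed FPKM. It had 158, 139 and 152 FPKM in GIA libraries 1 to 3 and 154, 155 and 155 FPKM in DMSO libraries 1 to 3, which was 90.2% ± 0.550 of the summed FPKM of the 5 AKR genes with GIA and 90.1% ± 0.541 with DMSO. All 5 log2 fold changes were negative, between -0.38 and -0.04, and 0 passed. AKR1C3, which reduces steroids and prostaglandins, had 15.8, 12.6 and 14.8 FPKM with GIA and 13.6, 15.5 and 15.1 FPKM with DMSO, and the groups overlapped.

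The 3 AKR1C genes lie side by side on chromosome 10, and AKR1C1 (chr10:4963253-4983283) and AKR1C2 (chr10:4987400-5017955) are nearly the same sequence: their coding sequences, taken as the longest open reading frame in GENCODE 29 transcripts, differed at 19 of 972 bases, with a longest shared run of 189 bases. AKR1C3, with a mean of 14.6 FPKM, shares a longest run of 112 bases with AKR1C1 and of 171 bases with AKR1C2. No source used here says how the authors' counting split reads among the 3 genes, so their separate values and shares are uncertain. AKR1C1 had 0.761, 0.524 and 0.613 FPKM with GIA and 0.682, 0.749 and 0.594 FPKM with DMSO. AKR1C2 had 0.835, 0.418 and 0.657 FPKM with GIA and 0.717, 0.743 and 0.897 FPKM with DMSO, which gave -0.30 on the log2 scale (SE 0.24, bounds -0.84 and 0.24). Both were lowest in GIA library 2. AKR1C3, at 91.9% and 91.3% identity to AKR1C1 and AKR1C2, held 91.98% ± 1.14 of the AKR1C level with GIA and 90.97% ± 0.291 with DMSO.

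AKR1B10, a retinal reductase, was low and had the most negative fold change of the 32 genes. It had 0.719, 0.555 and 0.827 FPKM in the GIA libraries and 0.905, 0.980 and 0.862 FPKM in the DMSO libraries, so the groups did not overlap. GIA over DMSO came to -0.38 on the log2 scale (SE 0.22, bounds -0.89 and 0.13; edgeR adjusted p = 0.875), and this rested on 74 to 109 estimated counts per library.

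UGDH had the smallest p of the 32 genes and lay lower in each GIA library. It encodes UDP-glucose dehydrogenase, which makes the UDP-glucuronate used to conjugate drugs and phenols. UGDH (chr4:39498755-39528233, minus strand) had 21.3, 18.7 and 20.8 FPKM in GIA libraries 1 to 3 and 23.5, 22.4 and 22.7 FPKM in DMSO libraries 1 to 3. GIA over DMSO came to -0.17 on the log2 scale (SE 0.05, bounds -0.30 and -0.05), with an unadjusted p of 0.0109 and an adjusted p of 0.875 by edgeR. With UGDH, AKR1B10 and MGST1, the groups did not overlap for 3 of 32 genes, against 11.2% of all tested genes, a share near the background. Of these, 1 was higher with GIA, against 5.63% of all tested genes, and 2 were lower, against 5.6%.

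Quinone and carbonyl enzymes other than UGDH overlapped between the groups. NQO1 (chr16:69706996-69726668, minus strand), the quinone reductase most often used as a readout of NRF2, had 107, 85.6 and 102 FPKM in the GIA libraries and 105, 106 and 105 FPKM in the DMSO libraries. GIA library 2 was low, GIA library 1 was the highest of the 6, and the 3 DMSO libraries were nearly equal. Its fold change was -0.11 in log2 units (SE 0.07, bounds -0.27 and 0.06; edgeR adjusted p = 0.875). EPHX1, microsomal epoxide hydrolase, had 42.6, 40.5 and 43.0 FPKM with GIA and 44.3, 42.0 and 43.2 FPKM with DMSO. The carbonyl reductases CBR1 and CBR3 had means of 23.9 and 4.69 FPKM, the prostaglandin reductase PTGR1 27.4 FPKM and the aldehyde dehydrogenase ALDH3A1 1.85 FPKM. Their log2 fold changes lay between -0.04 and 0.04.

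The haem enzymes HMOX1 and BLVRB, and OSGIN1, had positive fold changes, with 0 of 3 past the test. HMOX1, haem oxygenase 1, which opens the haem ring, had 7.92, 6.32 and 7.53 FPKM in the GIA libraries and 6.48, 5.98 and 7.04 FPKM in the DMSO libraries. Its fold change was 0.16 in log2 units (SE 0.11, bounds -0.08 and 0.40; edgeR adjusted p = 0.875), and GIA library 2 lay inside the DMSO range. BLVRB, biliverdin reductase B, had 36.9, 45.1 and 38.9 FPKM with GIA and 38.7, 38.4 and 39.4 FPKM with DMSO. It was high in GIA library 2 alone, and without that library its log2 fold change was -0.033. OSGIN1, an oxidative stress-induced growth inhibitor, averaged 1.71 ± 0.547 FPKM with GIA and 1.66 ± 0.239 FPKM with DMSO, and its log2 fold change was -0.22 without GIA library 1.

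Many NRF2 genes varied among the GIA libraries, with GIA libraries 1 and 2 often at the extremes. GIA library 2 was the lowest of the 6 libraries for 23 of the 32 tested genes, against 23.9% of all tested genes, and GIA library 1 was the highest for 16 of the 32 (50%), against 15.9% of all tested genes. Both held for 11 of the 32, against 6.57% of all tested genes. The 23 genes had 54.2% (AKR1C2) to 95.4% (TALDO1) of the mean of the other 5 libraries in GIA library 2, with a median of 84.4%. Over all 32 genes this median was 87.6%, and over all tested genes 101%. Over the whole table GIA library 2 stood out in both directions. It had the lowest value for 23.9% of all tested genes and the highest for 29.6%, each more than any other library. Of the 32 genes it was the highest for 2. The genes for which GIA library 2 was not the lowest were NFE2L2, MAFG, MAFK, MGST1, ME1, ALDH3A1, PTGR1, HMOX1 and BLVRB. In GIA library 2 the RNA of NFE2L2 was at 105% of the mean of the other 5 libraries, MAFK at 100% and MAFG at 96.6%. The regulators SQSTM1, KEAP1 and MAFF were at 67.0%, 83.8% and 84.3%. The part of the regulators in the low values was not tested. GIA library 2 was singled out after the values were seen, and no test was made of it.

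**Figure D3:**
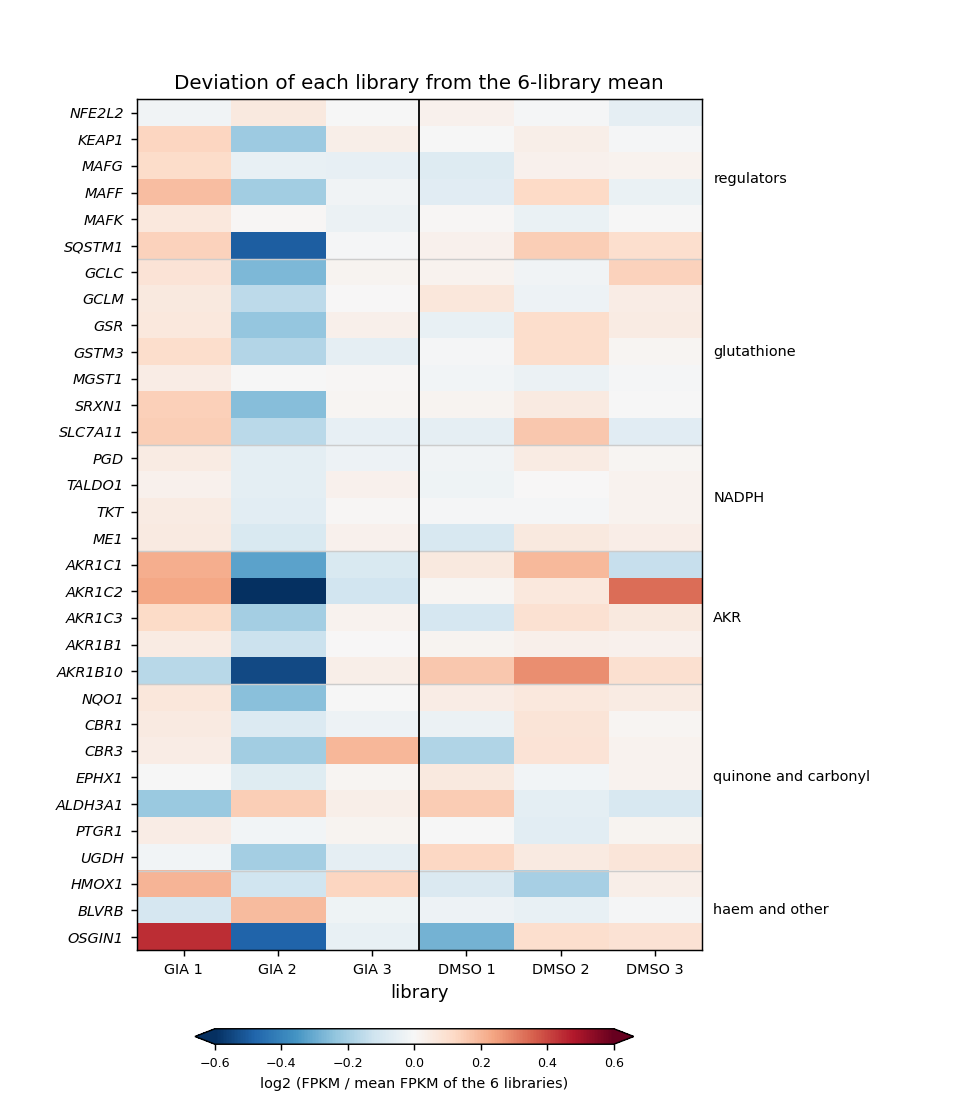
Log2 of each library's FPKM over the 6-library mean for the 32 tested NRF2 genes, blue below and red above the mean, with GIA libraries left of DMSO libraries. The column of GIA library 2 is blue for most genes, 23 of which had their lowest value there, while BLVRB and ALDH3A1 are red in it.

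The spread showed the same in other measures. The SD of log2 FPKM was larger among the GIA than among the DMSO libraries for 30 of the 32 genes, against 59.8% of all tested genes, with medians of 0.15 and 0.06 for GIA and DMSO over the 32 genes and of 0.09 and 0.07 over all tested genes. The summed FPKM of the 33 genes was 1135, 977.5 and 1083 in GIA libraries 1 to 3, against 1089, 1117 and 1108 in DMSO libraries 1 to 3. GIA libraries 1 and 2 lay on opposite sides of the DMSO range. Without GIA library 2 the median log2 fold change was 0.02, with 11 of 32 negative, and 14 genes had the opposite sign. Without GIA library 1 it was -0.09, with 25 negative. Summed marker levels also differed among the GIA libraries, the epithelial sum in the same direction as the NRF2 sum and the fibroblast sum in the opposite one. The 8 listed fibroblast markers summed to 178, 226 and 200 FPKM in GIA libraries 1 to 3 and to 199, 182 and 190 FPKM in DMSO libraries 1 to 3, and the 8 listed epithelial markers to 452, 381 and 431 FPKM and to 434, 441 and 440 FPKM in the same order. LUM made up most of the fibroblast sum, and KRT18 and KRT8 most of the epithelial one. KRT8 and KRT18 were lowest in GIA library 2, while KRT19, EPCAM and CDH1 were not. The part of these markers in the result was not tested.

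**Figure D4:**
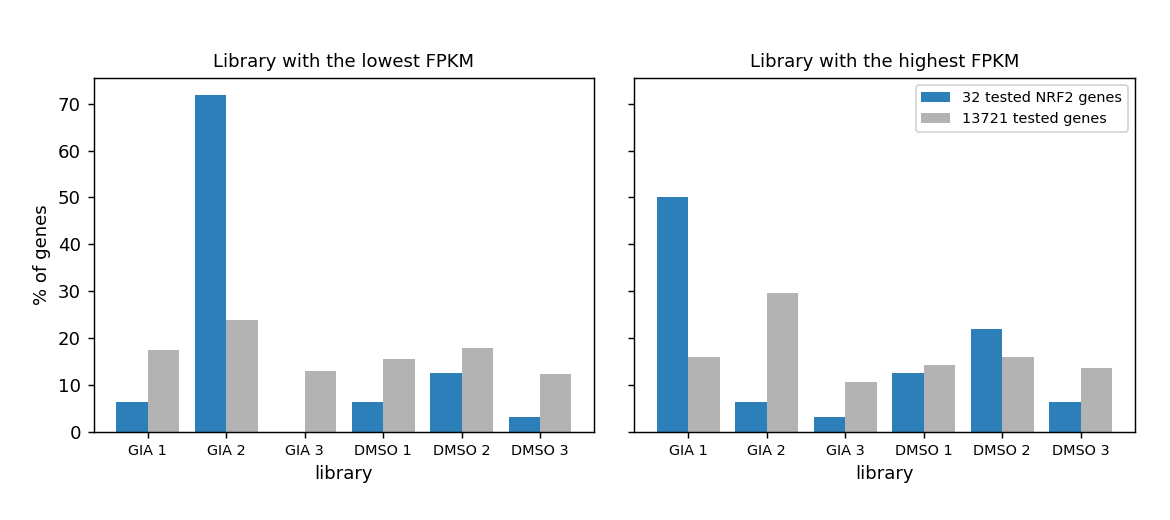
Percentage of the 32 tested NRF2 genes (blue) and of all 13721 tested genes (grey) that had their lowest (left) or highest (right) FPKM in each library, GIA libraries left of DMSO libraries. GIA library 2 held the lowest value of 71.9% of the NRF2 genes and 23.9% of all genes, and GIA library 1 the highest of 50% and 15.9%.

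Other genes of the pathway also gave no call. Of 42 further NRF2 targets, 38 were listed, 33 were tested and 0 passed the test, with a median log2 fold change of 0.0051, 19 positive and 14 negative. Of 14 further regulators, 13 were tested and 0 passed, with a median of -0.05. GIA library 2 was the lowest for 15 of the 33 targets and for 5 of the 13 regulators, against 23.9% of all tested genes. It was the highest for 10 of these targets and 1 of these regulators, against 29.6% of all tested genes. TRIM16, a ubiquitin ligase, had the smallest p of these, with 14.1, 9.52 and 12.97 FPKM with GIA and 13.2, 20.3 and 17.4 FPKM with DMSO, a log2 fold change of -0.48 (SE 0.17; unadjusted p = 0.0213, adjusted p = 0.875 by edgeR). The groups overlapped, and DMSO library 2 was the highest. Whether reads were shared with the related gene TRIM16L was not examined. SLC6A6, the taurine transporter, had 11.3, 12.9 and 11.1 FPKM with GIA and 10.8, 10.7 and 10.1 FPKM with DMSO, with no overlap (log2 fold change 0.15, SE 0.06). TXN, thioredoxin, had -0.09 (SE 0.04) and AMER1, a KEAP1-binding Wnt regulator, -0.15 (SE 0.07) on the same scale, and both had an adjusted p of 0.875 by edgeR.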

How the data were processed

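The authors deposited 1 table with an estimated count and an FPKM value per gene and library, per the file headers. The submitters' processing notes name FastQC 0.10.1, cutadapt, HISAT2 2.2.1, StringTie 2.1.6, DESeq2 1.22.2 and the GRCh38 (hg38) build, without their roles. Per the labels' protocols, total RNA was extracted with TRIzol and strand-specific libraries were prepared. The scale of the estimated counts could not be settled from the files, and they may overstate the number of fragments. Dividing by 4 was an alternative. Columns were matched to libraries by titles.

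Counts were rounded and tested with edgeR 4.0.16 in R 4.3.3 (TMM scaling, quasi-likelihood, two-sided, Benjamini-Hochberg over 13721 genes with a mean of at least 0.5 FPKM, threshold 0.05). The common biological coefficient of variation was 11%. Alternatives were other scalings and filters, DESeq2 1.42.0, limma 3.58.1 on log2 (FPKM + 0.1, 0.5 or 1), a replicate block and leaving out each library. The edgeR test was run on simulated data first. Chi-square per degree of freedom between libraries was 2.78 to 9.74 on counts divided by 4, and would be larger on the deposited counts. No pair of libraries therefore agreed within sampling noise on either scale. No library was merged with another. Gene coordinates are those of the deposited table, and promoter windows those of RefSeq (GRCh38.p14).

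The genes and lists were chosen with earlier results of these data known. Values in every library are given for the highest pair of genes in each functional group, those whose groups did not overlap, the 4 of smallest p, the AKR1C genes, NFE2L2, KEAP1, NQO1 and HMOX1. For the further lists the 4 genes of smallest p are named.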

Additional observations from a re-analysis of the deposited data

How the results depend on the processing

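No NRF2 gene was called with any of the 16 alternative settings. Over all genes the count called was 0 with other scalings, filters, tools and pseudocounts, 3 with the replicate block, and between 0 and 5 when 1 library was left out. Same-numbered libraries correlated at 0.0519, 0.0334 and 0.0966 in their deviations from the group means. Libraries of different number correlated at -0.086 to 0.0349. The cut set for pairing was 0.1, so the numbers were not taken as pairs. With a mean of at least 5 FPKM, TALDO1 (0.0059), TKT (0.0018) and ME1 (0.0035) had positive log2 fold changes. Leaving out 1 library turned the sign of some genes, whose lowest and highest log2 fold changes were -0.092 and 0.0037 for AKR1B1, -0.25 and 0.029 for AKR1C1, -0.11 and 0.053 for AKR1C3, -0.085 and 0.088 for ALDH3A1, -0.033 and 0.11 for BLVRB, -0.060 and 0.14 for CBR3, -0.17 and 0.0012 for GCLC, -0.11 and 0.0043 for GCLM, -0.14 and 0.011 for GSR, -0.10 and 0.077 for KEAP1, -0.12 and 0.082 for MAFF, -0.042 and 0.045 for MAFG, -0.0077 and 0.041 for MAFK, -0.052 and 0.041 for ME1, -0.00040 and 0.039 for NFE2L2, -0.22 and 0.24 for OSGIN1, -0.13 and 0.047 for SLC7A11, -0.14 and 0.057 for SRXN1, -0.020 and 0.029 for TALDO1 and -0.037 and 0.027 for TKT. The number of genes whose groups did not overlap, an alternative chosen after seeing the data, was 9 without GIA library 1 (27.1% of all tested genes), 7 without GIA library 2 (20.9%) and 3 or 4 without any other library (19.2% to 21.4%). UGDH stayed negative, between -0.21 and -0.12. AKR1B10, AKR1C1 and AKR1C2, all under 1 FPKM, had the SDs of log2 FPKM 0.29, 0.27 and 0.51 among the GIA libraries, and AKR1B10 and AKR1C2 the widest intervals.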
